A study of Mus musculus with 23 samples.

Results

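Cx3cr1 and 8 other genes that mark resting, or homeostatic, microglia were followed through RNA-seq libraries of microglia sorted from mouse retinas. The 9 members (Cx3cr1, P2ry12, Tmem119, Csf1r, Siglech, Gpr34, Fcrls, Olfml3 and Sparc) are the rows among the 35825 genes of the table whose Ensembl identifiers carry these symbols. All 9 passed the filter on low values, as did 17102 genes in all. The study compared CX3CR1-GFP mice (WT) with Spp1 KO; CX3CR1-GFP mice (KO), which lack secreted phosphoprotein 1, in naive retinas, at 4 weeks after elevation of intraocular pressure (IOP) with microbeads and at 7 days after optic nerve crush (ONC). There were 4 libraries in each group except WT ONC, which had 3, for a total of 23 libraries in 6 groups. The libraries called naive here are titled control. In the study's microbead model control mice were injected with saline, and the titles do not say whether these mice were. All groups carried the CX3CR1-GFP allele (Cx3cr1tm1Litt), in which GFP sits in the Cx3cr1 gene itself, and GFP+ cells were sorted. By the study's methods the CX3CR1-GFP parents were heterozygous, were mated with Spp1 KO mice, and their offspring were bred until both Spp1 alleles were mutant. The labels give neither the number of GFP alleles in the mice of each library nor their age. Retinas of multiple mice were pooled before sorting, so a library is a pool, and nothing in the labels says that replicates are separate cohorts; p-values measure only the spread between these libraries.

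Values are normalized counts, that is read counts scaled by a factor of their library. Reads on genes, recovered in 21 libraries, ranged from 22180480 to 30296094, and 3 reads, up to which a count of 0 leaves room, were worth 2.41 to 4.03 normalized counts (counting error only). The targeted gene Spp1 was lower in the libraries labelled KO but not absent from all of them. It ranged from 6.78 to 350.2 in KO naive against 333.6 to 1518 in WT naive, from 9.28 to 810.7 in KO IOP against 1343 to 2772 in WT IOP, and from 15.0 to 6811 in KO ONC against 14557 to 22906 in WT ONC. KO and WT below therefore stand for the labels of the libraries.

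Homeostatic microglia survey the neural tissue with motile processes, and a set of surface receptors sets them apart from other macrophages. Neurons display fractalkine (Cx3cl1), which binds the microglial receptor encoded by Cx3cr1, while Csf1 and Il34 act through the receptor encoded by Csf1r, on which microglia depend for survival. When microglia respond to injury, several homeostatic genes, among them P2ry12, Tmem119 and Cx3cr1, are known to be turned down. Each member is given below as a level and as a percentage of Csf1r in the same library, a ratio from which the size factor drops out. The share of microglial RNA in a library drops out as well, but only for genes whose RNA comes from microglia alone. Whether other retinal cells added to the RNA of a member was not tested. Csf1r is itself expressed by other macrophages, and the ratio is not corrected for transcript length, so it is compared between libraries and not between genes.

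Promoter windows are printed for 5 members whose ratio to Csf1r passed a test described below, Cx3cr1 after IOP elevation, P2ry12 and Olfml3 after ONC in WT, and Sparc and Fcrls after ONC in KO. They come from RefSeq on build GRCm38.p6 and run from 250 bases before to 50 bases after the start site, 5′ to 3′ on the strand of the gene. Windows were found for 6 of the 9 members, and the other 3 are Tmem119, Csf1r and Gpr34. Capitals mark the letters TGTGGT, the core that RUNX factors bind, or ACCACA, the same letters on the other strand. The windows are chr9:120068247-120068546 (minus strand) for Cx3cr1, chr3:59262936-59263235 (minus strand) for P2ry12, chr3:103737952-103738251 (minus strand) for Olfml3, chr11:55420031-55420330 (minus strand) for Sparc and chr3:87263475-87263774 (minus strand) for Fcrls.
Cx3cr1: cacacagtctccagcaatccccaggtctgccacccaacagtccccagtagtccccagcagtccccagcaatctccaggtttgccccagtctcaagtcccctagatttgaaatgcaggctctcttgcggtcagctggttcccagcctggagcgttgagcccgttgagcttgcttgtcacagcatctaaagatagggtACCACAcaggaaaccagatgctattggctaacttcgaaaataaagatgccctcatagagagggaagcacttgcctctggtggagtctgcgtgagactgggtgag
P2ry12: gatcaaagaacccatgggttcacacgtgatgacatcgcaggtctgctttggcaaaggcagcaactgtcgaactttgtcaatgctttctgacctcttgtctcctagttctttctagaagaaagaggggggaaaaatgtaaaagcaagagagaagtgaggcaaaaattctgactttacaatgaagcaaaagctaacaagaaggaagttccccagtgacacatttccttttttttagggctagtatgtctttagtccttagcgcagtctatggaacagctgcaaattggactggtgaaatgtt
Olfml3: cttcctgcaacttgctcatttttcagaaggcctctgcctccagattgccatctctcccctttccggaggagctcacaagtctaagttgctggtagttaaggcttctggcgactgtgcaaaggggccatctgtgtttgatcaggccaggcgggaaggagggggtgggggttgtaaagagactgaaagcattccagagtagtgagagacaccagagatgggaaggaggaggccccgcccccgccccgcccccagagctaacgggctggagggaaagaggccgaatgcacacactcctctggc
Sparc: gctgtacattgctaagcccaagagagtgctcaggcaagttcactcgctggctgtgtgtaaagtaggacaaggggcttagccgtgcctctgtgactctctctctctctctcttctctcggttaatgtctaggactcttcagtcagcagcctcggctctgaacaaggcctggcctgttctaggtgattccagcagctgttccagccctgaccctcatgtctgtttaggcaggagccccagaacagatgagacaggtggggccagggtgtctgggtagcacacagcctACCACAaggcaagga
Fcrls: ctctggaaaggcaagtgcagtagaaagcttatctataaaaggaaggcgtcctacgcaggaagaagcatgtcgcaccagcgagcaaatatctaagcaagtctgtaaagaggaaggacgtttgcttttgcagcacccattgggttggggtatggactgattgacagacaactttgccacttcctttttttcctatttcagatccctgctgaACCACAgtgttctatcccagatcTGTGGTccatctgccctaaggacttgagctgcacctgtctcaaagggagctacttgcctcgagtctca
The Cx3cr1 window held 1 match, which began at base -54 relative to the start site, and the Sparc window held 1, at base 35. The Fcrls window held 2. None was found in the windows of P2ry12 and Olfml3. Over the 6 windows, 4 held these letters (Cx3cr1, Fcrls, Siglech and Sparc), against 16.8% of 32851 promoter windows of the same length. GAGGAA, the core bound by PU.1, or TTCCTC on the other strand, was in 2 of the 6 (Fcrls and Siglech) against 28.3% of all windows, and TGANTCA, the letters of AP-1 sites, was in 0 against 7.81%. None of the 3 strings contains another. These matches describe letters only.

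Cx3cr1 (ENSMUSG00000052336.7) lies on the minus strand of chromosome 9 of GRCm38 from 119901616 to 120069879. It encodes the fractalkine receptor. Its normalized counts were 67878, 44957, 52121 and 52866 in the 4 WT naive libraries and 26836, 54612, 51592 and 31626 in WT IOP. In KO IOP they were 1079, 1233, 1067 and 952.2. The 4 KO IOP libraries lay close together and far below every other library, of which the lowest, KO naive replicate 1, was at 9417. Means were 1083 ± 115 after IOP elevation in KO and 41166 ± 13975 in WT (SD, n = 4 each). The log2 fold change was -5.19 (standard error 0.35, limma adjusted p = 1.21e-08), 36.4-fold lower in KO. A gene counted as called where its adjusted p (Benjamini-Hochberg, over all genes tested) was under 0.05 and its log2 fold change was beyond 0.58 in either direction. Cx3cr1 was the 1 member called in this comparison, in which 2.11% of all genes tested were called, 1.64% lower. Groups that did not overlap, with KO lower, were found for 7.86% of all genes.

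Ordered by their means, the levels of Cx3cr1 ran from WT naive (54456 ± 9633, SD, n = 4) through WT ONC (41233 ± 11808, SD, n = 3), WT IOP, KO ONC (28802 ± 14379, SD, n = 4) and KO naive (20863 ± 7741, SD, n = 4) to KO IOP. Each group overlapped the next in this order except the last pair. The libraries were at 54810, 35527 and 33361 in WT ONC, at 9417, 23090, 26283 and 24661 in KO naive and at 46130, 33812, 12869 and 22396 in KO ONC. Naive KO lay wholly below naive WT, yet Cx3cr1 (log2 fold change -1.48, standard error 0.35) did not pass in limma (adjusted p = 0.0562). From KO naive to KO IOP Cx3cr1 fell by 4.17 on the log2 scale (standard error 0.35, adjusted p = 8.33e-07). From KO naive to KO ONC it did not pass (log2 fold change 0.42, standard error 0.35, adjusted p = 0.392).

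**Figure D1:**
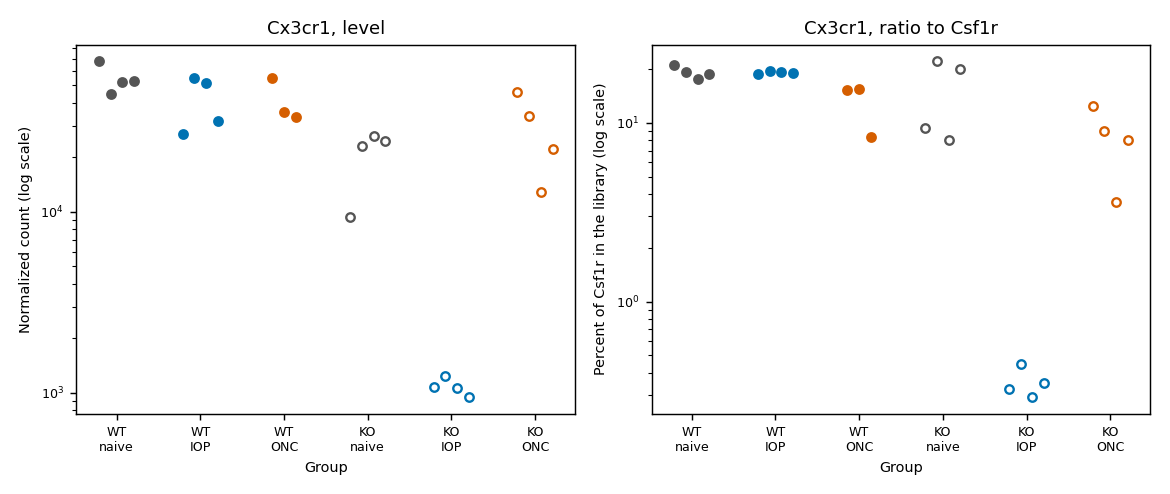
Cx3cr1 in each of the 23 libraries, as a normalized count (left) and as a percentage of Csf1r in the same library (right), both on log axes. Filled points are WT and open points KO, in grey for naive, blue for IOP and orange for ONC. The 4 KO IOP libraries sit between 952.2 and 1233 and between 0.293% and 0.444% of Csf1r, below all other libraries.

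As a percentage of Csf1r, Cx3cr1 was nearly the same in all naive and IOP libraries of WT mice. It was at 21.1, 19.3, 17.6 and 18.8% in WT naive and at 18.8, 19.6, 19.2 and 19.1% in WT IOP, although the level of Cx3cr1 differed up to 2.04-fold among the WT IOP libraries. In KO IOP it was 0.326, 0.444, 0.293 and 0.351%, a log2 fold change of the ratio of -5.78 against WT IOP (standard error 0.32, unadjusted p = 6.01e-15, adjusted p = 1.03e-10 in limma). Of 17101 ratios, 1.14% were called in this comparison, 1.11% lower, and 1 of the 8 members was among them. Csf1r stands below every ratio, so its own error is shared by all of them. Against the geometric mean of 7 genes shared by microglia and macrophages (Aif1, Itgam, Ptprc, Cd68, Laptm5, C1qa and Fcer1g), a reference added after the data were examined, the log2 fold change was -5.88.

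The naive KO libraries fell into 2 pairs on this ratio. Replicates 2 and 4 were at 22.1 and 20.02% of Csf1r, and replicates 1 and 3 at 9.37 and 8.02%. KO ONC was spread as well, at 12.5, 8.98, 3.62 and 8.03%, and WT ONC was at 15.3, 15.4 and 8.29%. The highest ratio of Cx3cr1 was 3.44 times the lowest in KO ONC and 2.75 times in KO naive. Among the other members the widest such range in a group was 2.05 times, for Olfml3 in WT ONC; the difference in spread was not tested. Genotypes were not separated on the ratio in naive retinas (log2 fold change -0.51, standard error 0.32, adjusted p = 0.194) or after ONC (-0.73, standard error 0.35, adjusted p = 1, unadjusted p = 0.0473).

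The genes around Cx3cr1 were looked up as well, a choice made after the values of Cx3cr1 were seen. Of 77 annotated genes within 1 megabase of it, 26 were tested between KO IOP and WT IOP and 0 were called in limma (7 at an unadjusted p under 0.05), with a median log2 fold change of 0.21. Over all genes 2.11% were called, at a median of -0.03. The share of all genes at an unadjusted p under 0.05 is not given here, so the 7 are not read as many or few. KO IOP differed from WT IOP in other ways than genotype. Ddx3y, a gene of the Y chromosome, was at most 3.05 in KO IOP and from 632.8 to 2274 in WT IOP, and markers of the lens held 0.115 to 0.883% of the normalized counts in WT IOP and at most 5.61e-04% in KO IOP. The labels do not give the number of GFP alleles at Cx3cr1 in either group, and whether it differed is unknown. The part of these differences and of the GFP alleles in the result was not tested. The exons of Cx3cr1 share 78 bases (1.73%) with Gm33858 on the other strand. Those of Csf1r, which stands below every ratio, share 873 bases (15.1%) with Hmgxb3 on the other strand. The strand setting of the counting is not given in the sources used here, and the part of these overlaps was not tested.

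The purinergic receptor gene P2ry12 (chromosome 3, 59216272 to 59262871), whose product senses nucleotides released by damaged cells, overlapped between the genotypes after IOP elevation. It was at 59142, 40890, 56619 and 40150 there and at 31205, 43958, 50359 and 33345 in WT IOP. Its log2 fold change was 0.31 (standard error 0.31, adjusted p = 0.58). Among the other members the log2 fold changes between KO IOP and WT IOP ran up to 0.82, for Olfml3, and all 8 were above 0, at a median over the 9 members of 0.56 against -0.03 over all genes. Siglech, Fcrls, Olfml3 and Sparc did not overlap between the groups and were higher in KO, which held for 5.11% of all genes, but their adjusted p ranged from 0.144 to 0.265.

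The level of Csf1r also overlapped (log2 fold change 0.59, standard error 0.34, adjusted p = 0.325). Csf1r (ENSMUSG00000024621.16, chromosome 18), the receptor gene for Csf1 and Il34, was at 331237, 277358, 364169 and 271471 in KO IOP and at 143011, 278827, 267997 and 165970 in WT IOP. WT IOP replicates 1 and 4 were low in every one of the 9 members. In these libraries markers of rod photoreceptors held 2.48 and 2.68% of the normalized counts, against 1.59 and 1.81% in replicates 2 and 3, and lens markers 0.815 and 0.883% against 0.170 and 0.115%. The part of other cells in the levels was not tested, and in bulk samples fewer microglia and less RNA per microglial cell cannot be told apart. On the ratio to Csf1r, the members other than Cx3cr1 had log2 fold changes from -0.50 (Gpr34) to 0.23 (Olfml3), and 0 of these 7 passed in limma. Of all ratios, 25% had an unadjusted p under 0.05. Of the 7, P2ry12 (unadjusted p = 0.0458) and Gpr34 (unadjusted p = 0.00826) were under 0.05 before adjustment, both lower in KO. Gpr34, a lysophosphatidylserine receptor gene on the X chromosome (13632089 to 13640858), was at 9.24 ± 0.398% of Csf1r after IOP elevation in KO and at 13.3 ± 2.3% in WT (SD, n = 4 each). It did not overlap, which held for 15.4% of all ratios with KO lower. With the 7-gene reference, where 1.81% of ratios were called, it passed (log2 fold change -0.61, adjusted p = 0.0365).

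**Figure D2:**
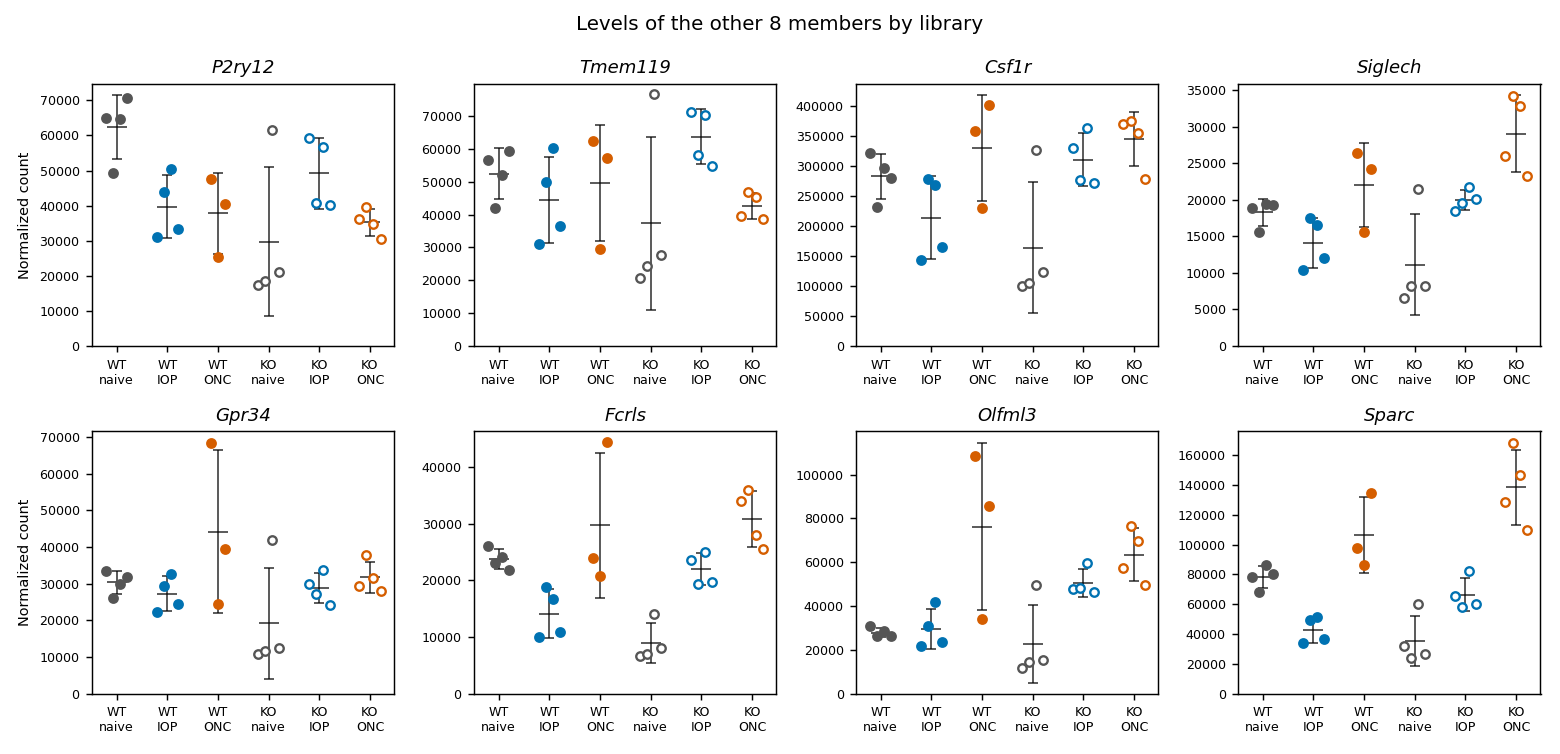
Normalized counts of the other 8 members in each library, with the mean and SD of each group; filled points are WT, open points KO. In KO naive, 3 libraries lie low and replicate 3 lies at 327832 for Csf1r, against 100511 to 123206 in the others.

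In naive retinas, all 9 members were fitted lower in KO than in WT. The 2 that passed were Fcrls and Sparc, where 0.409% of all genes tested were called, 0.339% lower. Fcrls (chromosome 3, 87250758 to 87263738), an Fc receptor-like scavenger receptor gene, was at 6638, 6940, 14118 and 8072 in KO naive and at 26016, 23071, 24058 and 21779 in WT naive. The genotypes did not overlap, as for 5.3% of all genes with KO lower, and the log2 fold change was -1.48 (standard error 0.25, adjusted p = 0.0136). Sparc (chromosome 11, 55394500 to 55423183), which encodes a secreted matrix-binding protein, was at 31922, 23848, 60384 and 26479 in KO naive and at 78083, 68286, 86224 and 80320 in WT naive, again without overlap, and its log2 fold change was -1.23 (standard error 0.25, adjusted p = 0.0358). The median log2 fold change of the 9 members was -0.97, against 0.03 over all genes. Other lists of microglia and macrophage genes were also fitted lower in KO. This held for all 7 genes shared by microglia and macrophages (median -0.92) and 38 of 39 further homeostatic genes (-0.82). It also held for 21 of 24 disease-associated genes (-0.54) and all 10 markers of border macrophages and monocytes (-0.86).

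KO naive replicate 3 stood apart from the other KO naive libraries in 6 of the members. Csf1r was at 327832 in it and at 100511, 104617 and 123206 in replicates 1, 2 and 4. P2ry12 was at 61441 against 17495 to 21110, and Tmem119 (chromosome 5, 113793729 to 113800516), which encodes a membrane protein used to tell microglia from other macrophages, at 76529 against 20789 to 27575. Cx3cr1 did not follow, at 26283 against 9417 to 24661. Without replicate 3, all 9 members passed in naive retinas, with log2 fold changes from -1.72 (Fcrls) to -1.01 (Olfml3), where 9.49% of all genes were called. Without any other single library of the comparison, 0 or 1 passed. Rod markers held 1.16% of the normalized counts in replicate 3 and 3.10, 3.26 and 3.64% in replicates 1, 2 and 4, and markers of Muller glia and astrocytes 0.198% against 0.288 to 0.538%; these moved against the microglial genes. The Y-chromosome gene Ddx3y was at 28.09 in replicate 3 and from 1302 to 1713 in the others. The part of these differences was not tested.

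On the ratio to Csf1r the naive genotypes lay close, and 0 of 8 members passed, where 6.65% of all ratios were called, 6.64% higher (4 members had an unadjusted p under 0.05, as did 48.9% of all ratios). Fcrls came nearest. It was at 6.60, 6.63, 4.31 and 6.55% of Csf1r in KO naive and at 8.09, 9.91, 8.11 and 7.76% in WT naive, with a log2 fold change of the ratio of -0.51 (standard error 0.16, unadjusted p = 0.00486, adjusted p = 0.0501). P2ry12 also lay lower without overlap (17.8 ± 0.70% against 22.1 ± 2.16%, SD, n = 4 each, adjusted p = 0.0728). Olfml3 lay higher without overlap (13.3 ± 1.54% against 9.94 ± 0.87%, SD, n = 4 each, adjusted p = 0.0717). Groups lay apart for 0.304% of ratios toward lower and 7.27% toward higher values in KO.

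IOP elevation in WT mice moved none of the members past the threshold. On the level 0 of 9 passed in limma (3 at an unadjusted p under 0.05, Fcrls, P2ry12 and Sparc, all lower, against 13.3% of all genes), where 1.56% of all genes were called, and with DESeq2 on recovered reads 1 passed. Sparc was at 33857, 49337, 51300 and 36855 in WT IOP, below all WT naive libraries (log2 fold change -0.89, standard error 0.25, adjusted p = 0.088). Fcrls was at 10075, 18803, 16777 and 10901, also below (log2 fold change -0.80, standard error 0.25, adjusted p = 0.128). Such a gap with IOP lower was found for 7.03% of all genes. On the ratio 0 of 8 passed (3 at an unadjusted p under 0.05, against 11.6% of all ratios), where 0.684% of all ratios were called. Sparc was at 27.8 ± 2.39% of Csf1r in WT naive and 20.7 ± 2.74% in WT IOP (SD, n = 4 each), without overlap (as for 0.994% of ratios with IOP lower), at a limma adjusted p of 0.34.

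In KO mice, 6 of the 9 members passed between IOP elevation and naive retinas, where 7.88% of all genes were called (5.06% higher and 2.81% lower). Cx3cr1 fell, as given above, and Csf1r, Siglech, Fcrls, Olfml3 and Sparc rose. Rises were not particular to the members. Of the 7 genes shared by microglia and macrophages, 6 were called higher and 0 lower (median 1.35, against 0.99 over the 9 members). Of 24 disease-associated microglia genes, 15 were called higher and 0 lower (median 1.11). The median over all genes was -0.12. Fcrls was at 23623, 19400, 25023 and 19681 in KO IOP, above all KO naive libraries, as 5.43% of all genes were, and rose by 1.36 on the log2 scale (standard error 0.25, adjusted p = 0.00823). Olfml3 (chromosome 3, 103722222 to 103738001), which encodes a secreted olfactomedin-like protein, was at 47989, 48183, 59685 and 46227 in KO IOP and at 11805, 14689, 49561 and 15249 in KO naive. It rose by 1.40 (standard error 0.36, adjusted p = 0.0263), and KO naive replicate 3 overlapped the KO IOP libraries. Siglech (chromosome 7, 55768178 to 55778925), a sialic acid-binding lectin gene, rose by 1.01 (adjusted p = 0.0311), Csf1r by 1.10 (adjusted p = 0.0493) and Sparc by 0.99 (adjusted p = 0.0256). Markers of other cells lay lower in KO IOP. All 12 rod markers, 9 of 10 markers of Muller glia and astrocytes and all 8 of retinal ganglion cells had a log2 fold change below 0, and 2 of each list passed. Rod markers held 0.870 to 1.54% of the normalized counts in KO IOP. Ddx3y was at most 3.05 in KO IOP, as given above, against 1302 or more in KO naive replicates 1, 2 and 4. The part of these differences was not tested. The count of members rests on single libraries. Without KO naive replicate 3, 9 passed, where 18.6% of all genes were called. Without any 1 of KO naive replicates 1, 2 and 4 or KO IOP replicate 3, 2 passed (0.538 to 2.38% of all genes), without KO IOP replicate 2, 3 passed (2.82%), and with edgeR on recovered reads 1 passed (0.0994%). The edgeR fit also lacked KO IOP replicates 2 and 4.

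The rises in level did not appear on the ratio. Against Csf1r, 1 of 8 members passed between KO IOP and KO naive, Cx3cr1 (log2 fold change -5.27, standard error 0.32, unadjusted p = 4.17e-14, adjusted p = 7.12e-10), while 49.4% of all ratios were called, 49.2% lower. The other 7 members had log2 fold changes of the ratio from -0.28 (Gpr34) to 0.30 (Olfml3), against a median of -1.23 over all genes. Tmem119, for example, was at 20.7, 23.3, 23.3 and 22.4% of Csf1r in KO naive and at 21.5, 21.0, 19.3 and 20.2% in KO IOP.

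The change from naive to IOP libraries differed between genotypes for 6 of 9 members (interaction of genotype and IOP, limma), where 8.75% of all genes were called (4.85% above 0 and 3.9% below). The interaction of Cx3cr1 was -3.71 on the log2 scale (standard error 0.49, adjusted p = 3.58e-04). P2ry12, Csf1r, Siglech, Fcrls and Sparc had interactions from 1.41 (Siglech) to 2.15 (Fcrls). These were not particular to the members. Of the 7 genes shared by microglia and macrophages, 4 were called above 0 and 0 below (median 1.61, against 1.41 over the 9 members). Of 39 further homeostatic microglia genes, 22 were called above 0 and 0 below (median 1.33). The median over all genes was -0.08. Without KO naive replicate 3 all 9 passed, where 18% of all genes were called, and 3 passed without any 1 of WT naive replicates 3 and 4, WT IOP replicates 1 and 4, KO naive replicates 1, 2 and 4 and KO IOP replicate 3 (3.35 to 6.05% of all genes). Cx3cr1, Fcrls and Sparc passed in each of the 16 fits that left out 1 library. Ddx3y was at most 3.05 in KO IOP and from 632.8 to 2274 in WT IOP. It was at 1302 or more in KO naive replicates 1, 2 and 4, at 28.09 in replicate 3 and from 0 to 2623 in WT naive. In KO naive replicates 1, 2 and 4 the 9 members held 0.931 to 1.255% of the normalized counts, against 2.587% in replicate 3. The part of these differences and of the number of GFP alleles was not tested.

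**Figure D3:**
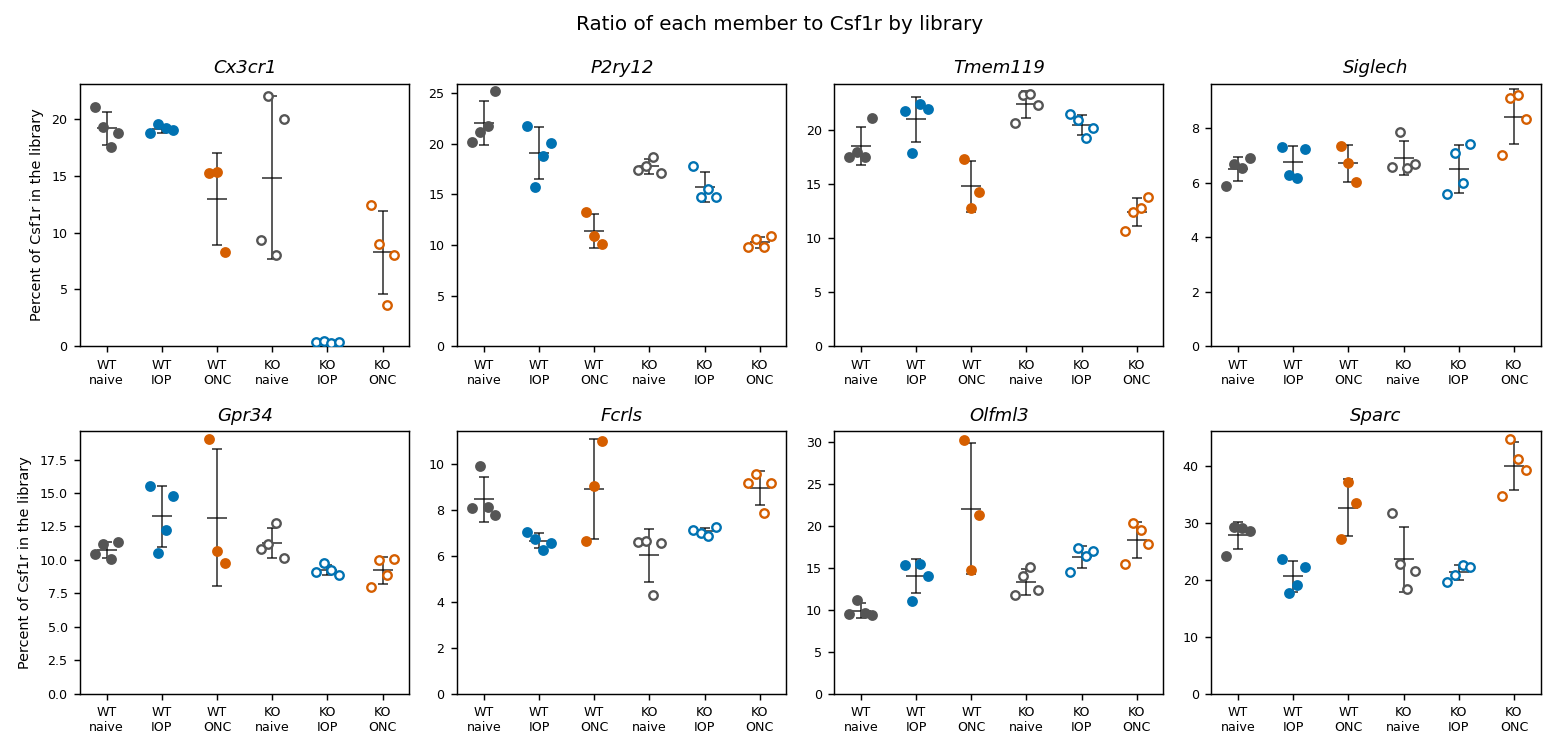
Each member as a percentage of Csf1r in the same library, with the mean and SD of each group; filled points are WT, open points KO. P2ry12 and Tmem119 have their lowest means after ONC in both genotypes, Olfml3 and Sparc have their highest means there, and Cx3cr1 lies near 0 in KO IOP.

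In WT after ONC, Olfml3 was the 1 of 9 that passed on the level, where 18.1% of all genes were called, 7.55% higher. It was at 108491, 34106 and 85682 in WT ONC and at 30783, 26161, 28434 and 26275 in WT naive, a rise of 1.29 on the log2 scale (standard error 0.39, adjusted p = 0.0252). The 3 crush libraries lay above the naive ones, replicate 2 only just; 12.1% of all genes lay apart in that direction and 14.3% in the other. P2ry12 was at 47652, 25227 and 40445 in WT ONC, below the naive range of 49335 to 70733 (log2 fold change -0.76, standard error 0.33, adjusted p = 0.11). Olfml3 did not pass on the level without WT naive replicate 2 or 4 or WT ONC replicate 1 or 3.

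On the ratio, P2ry12 and Olfml3 passed in WT, 2 of 8 members, where 7.95% of all ratios were called (2.66% higher and 5.29% lower). P2ry12 was at 13.3, 10.9 and 10.05% of Csf1r in WT ONC and at 20.2, 21.2, 21.8 and 25.2% in WT naive. It fell by 0.96 on the log2 scale (standard error 0.14, unadjusted p = 6.58e-07, adjusted p = 1.31e-04). Olfml3 was at 30.3, 14.8 and 21.3% against 9.57, 11.2, 9.59 and 9.36%, a rise of 1.10 (standard error 0.19, unadjusted p = 6.77e-06, adjusted p = 7.33e-04). Cx3cr1 and Tmem119 lay below naive WT without overlap, which held for 11% of all ratios, and did not pass (adjusted p = 0.304 and 0.149). Tmem119 was at 17.4, 12.8 and 14.2% in WT ONC and from 17.5 to 21.2% in WT naive.

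In KO mice, 6 of 9 members rose in level after ONC, where 23.6% of all genes were called (12.7% higher and 11% lower), and on the ratio 3 of 8 fell and 2 rose, where 58.1% were called (56.7% lower and 1.47% higher). Sparc rose most on the level. It was at 128549, 168494, 146692 and 109848 in KO ONC, above all KO naive libraries, and rose by 2.04 on the log2 scale (standard error 0.25, adjusted p = 1.33e-05). Fcrls rose by 1.84, Olfml3 by 1.72, Siglech by 1.54, Csf1r by 1.26 and Gpr34 by 0.97 (adjusted p from 3.68e-05 to 0.0347). Gpr34 did not pass in edgeR (adjusted p = 0.161) or without any 1 of KO naive replicates 1, 2 and 4 and KO ONC replicates 1, 2 and 3. P2ry12, Tmem119 and Cx3cr1 did not pass, at 0.46, 0.40 and 0.42. Other lists of microglia genes rose as well. As a median share of the normalized counts, the 9 members went from 1.19% in KO naive to 2.52% in KO ONC. The 7 genes shared by microglia and macrophages went from 0.481 to 1.215%, and 39 further homeostatic genes from 2.48 to 5.27%. The 24 disease-associated genes went from 2.30 to 8.02%. Markers of border macrophages and monocytes went the other way, from 0.115 to 0.0719%. Markers of other cells fell in level, 10 of 12 for rods, 7 of 10 for Muller glia and astrocytes and 7 of 8 for retinal ganglion cells, and rod markers held 0.714 to 1.05% of the normalized counts in KO ONC against 1.16 to 3.64% in KO naive. Their part in the rise of the members was not tested.

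Relative to Csf1r these 3 receptor and membrane protein genes fell. P2ry12 was at 9.77, 10.6, 9.81 and 10.9% in KO ONC, against 17.4, 17.8, 18.7 and 17.1% in KO naive (log2 fold change -0.79, standard error 0.13, unadjusted p = 3.47e-06, adjusted p = 2.92e-04). Tmem119 was at 10.7, 12.4, 12.8 and 13.8%, also below every naive library (-0.86, standard error 0.13, unadjusted p = 8.68e-07, adjusted p = 1.63e-04). Cx3cr1 overlapped between the groups (-0.84, standard error 0.32, unadjusted p = 0.0156, adjusted p = 0.0305), and it did not pass without KO naive replicate 2 (-0.60) or 4 (-0.65) or KO ONC replicate 3 (-0.48). Sparc rose from 23.6 ± 5.73% to 40.04 ± 4.17% of Csf1r (SD, n = 4 each; 0.79, standard error 0.15, adjusted p = 8.03e-04). Fcrls rose by 0.59 (standard error 0.16, adjusted p = 0.00568), just past the threshold on size, and was under it without KO naive replicate 3 (0.43) or without KO ONC replicate 1, 2 or 4. Gpr34 and Siglech did not pass (adjusted p = 0.156 and 0.0876).

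The reference changed the calls of Olfml3, Sparc and Fcrls after ONC. Csf1r itself was at 1256 ± 102% of the geometric mean of the 7 shared genes in WT naive (SD, n = 4) and at 856 ± 152% in WT ONC (SD, n = 3). Relative to those genes, P2ry12 fell by 1.52, Cx3cr1 by 1.18 and Tmem119 by 0.90 in WT (adjusted p = 2.95e-06, 0.0204 and 1.90e-04), where 21.6% of ratios were called. In KO they fell by 1.27, 1.32 and 1.33 (adjusted p = 8.55e-06, 0.00118 and 1.17e-06), where 75.6% were called, and Gpr34 fell by 0.76. Olfml3 then had a log2 fold change of 0.53 in WT and -0.018 in KO, Sparc of -0.34 and 0.31, and Fcrls of -0.52 and 0.11, none of them called. Sparc in WT and Olfml3 in KO thus turned their sign. Cd68 and C1qa, which belong to the 7 genes, are also in the lists of disease-associated and homeostatic microglia genes. After ONC, 3 of the 7 were themselves called higher relative to Csf1r in WT and 2 in KO, with 0 called lower. The part of these rises in the falls against the 7 genes was not tested.

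Between KO and WT after ONC, 0 of 9 members passed on the level (0 at an unadjusted p under 0.05, against 9.36% of all genes), where 0.0877% of all genes were called, and 0 passed with edgeR or DESeq2 on recovered reads. On the ratio 0 of 8 passed in limma (3 at an unadjusted p under 0.05, against 4.29% of all ratios), where 0.0234% were called. The difference in level ran from -0.64 (Cx3cr1) to 0.42 (Siglech) on the log2 scale, and the 95% interval of P2ry12 from -0.70 to 0.59. The Y-chromosome gene Ddx3y was at 1797, 9.21 and 3.51 in WT ONC and from 1369 to 1717 in KO ONC, and its part was not tested. The interaction of genotype and ONC passed for 0 of 9 members (5 at an unadjusted p under 0.05, against 12.4% of all genes), where 0.0702% of all genes were called, and 5 passed without KO naive replicate 3, where 3.7% of all genes were called.

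**Figure D4:**
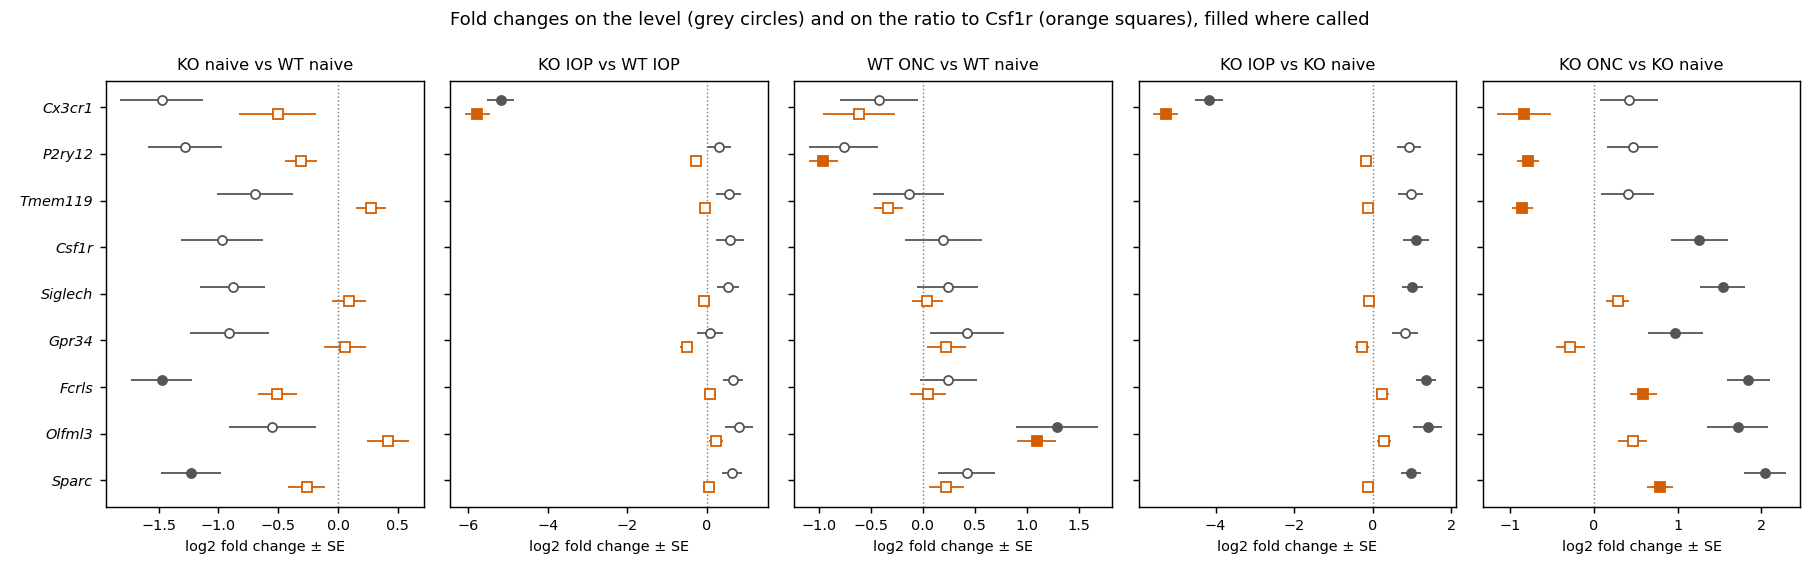
log2 fold changes with standard errors of the 9 members in 5 comparisons, on the level (grey circles) and on the ratio to Csf1r (orange squares); filled symbols passed both thresholds, and each panel has its own axis. In KO IOP against KO naive the levels other than Cx3cr1 lie between 0.83 and 1.40 and their ratios between -0.28 and 0.30.

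The ligands of these receptors were read from the same libraries. Cx3cl1, the fractalkine gene, is known as a neuronal gene. It was at 3704 ± 178 in WT naive (SD, n = 4) and 404.0, 1053 and 1359 in WT ONC, a fall of 2.15 on the log2 scale (adjusted p = 5.64e-05), and it fell by 1.37 in KO (adjusted p = 0.00148). Csf1 rose after ONC, from 239 ± 86.7 (SD, n = 4) to 1643, 2811 and 4024 in WT (log2 fold change 3.55, adjusted p = 4.02e-05) and to 3468 ± 154 (SD, n = 4) in KO (4.08, adjusted p = 4.55e-06). Il34 fell in WT (-4.05, adjusted p = 0.00497), where 1 of 3 crush libraries was at 0, and did not pass in KO (adjusted p = 0.16). Between KO and WT after IOP elevation 0 of the 3 ligands passed in limma (0 at an unadjusted p under 0.05). Markers of retinal ganglion cells, which moved the same way as Cx3cl1, held 0.0385 to 0.0531% of the counts in WT naive and 0.00174 to 0.0103% in WT ONC; their part was not tested.

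A list of 39 further homeostatic microglia genes was read beside the members. Between KO IOP and WT IOP, 1 rose (Lag3, an inhibitory receptor gene, log2 fold change 1.27) and 0 fell, with a median of 0.51 (2.11% of all genes were called, median -0.03). From KO naive to KO IOP, 19 rose and 0 fell on the level (median 1.01), against 5.06% and 2.81% of all genes (median -0.12). On the ratio 1 rose and 1 fell (median -0.099), where 49.2% of all ratios were called lower (median -1.23). After ONC, on the ratio to Csf1r, 3 rose and 3 fell in WT (median 0.03), against 2.66% and 5.29% of all ratios (median -0.29). In KO 5 rose and 8 fell (median -0.23), against 1.47% and 56.7% of all ratios (median -1.38). P2ry13, the neighbour and relative of P2ry12, fell in both, by 0.91 in WT (adjusted p = 4.90e-05) and 1.29 in KO (adjusted p = 3.96e-07). Of 24 disease-associated genes, which microglia are known to turn on around damage, 17 rose and 0 fell on the ratio in WT after ONC (median 1.23), where 2.66% of all ratios rose and 5.29% fell, led by Cst7 (3.92), Ccl4 (3.62), Itgax (2.77) and Clec7a (2.65). In KO 13 rose and 1, Gpnmb, fell (median 0.70), where 1.47% of all ratios were called higher and 56.7% lower.

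The label of the cells was checked against markers. The 7 genes shared by microglia and macrophages were each at 2208 or more in every library and together held 0.345 to 1.37% of the normalized counts. The 9 members held 0.931 to 2.77%. Markers of border macrophages and monocytes (10 genes) held 0.0176 to 0.324%, with the lowest values in WT ONC (0.0176 to 0.0488%), against 0.115 to 0.237% in WT naive. After ONC in WT, 6 of these 10 fell and 0 rose on the level, where 10.5% of all genes fell and 7.55% rose, and 7 fell on the ratio, as did 5.29% of all ratios. Markers of rods (12 genes) held 0.514 to 3.64%, of Muller glia and astrocytes (10 genes) 0.0774 to 0.538%, of retinal ganglion cells (8 genes) 0.00174 to 0.0644% and of vessels (10 genes) 0.00409 to 0.0643%.

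Across the 23 libraries, the log2 levels of Cx3cr1 did not follow those of the other members by Pearson's r. This is a description over libraries that share their normalization. Pearson's r with Cx3cr1 ran from -0.23 (Tmem119) to 0.15 (Gpr34), while pairs among the other 8 had r from 0.45 (P2ry12 and Sparc) to 0.95 (Csf1r and Siglech). By rank the values were higher for most members, with Spearman's rho from -0.03 (Olfml3) to 0.38 (P2ry12). The KO IOP libraries, in which Cx3cr1 was far below all others, are part of these values. What r would be without them was not tested. The 5 genes most like Cx3cr1 were Cth, Cxcr6, Lrrc47, Zfp937 and Rtkn2 (r from 0.72 to 0.78, Spearman's rho from 0.32 to 0.52). The 5 most like the mean of the other 8 were Nckap1l, Cyfip1, Slco2b1, Lgmn and Tmem63a (r from 0.98 to 0.99).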

How the data were processed

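The authors sorted GFP+ cells, sequenced 150-bp reads and, per the paper, quantified them with salmon on GRCm38; the submitters' notes also name STAR and DESeq2. They deposited normalized counts, a signal value: read counts scaled by one factor per library. Normalization assumes that most genes do not change, so a level moves with the share of microglial RNA. Whole reads were recovered in 21 libraries (tolerance 0.001); KO IOP replicates 2 and 4 entered no count model because their factor lies too near 1.

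Identifiers were matched to symbols (35436 of 35825). limma 3.58.1 in R 4.3.3 (lmFit, contrasts, eBayes with trend) was run on log2(normalized count + 1) and on log2 ratios to Csf1r, with 6 groups, 23 libraries and 0 covariates, for genes at 10 or more in at least 3 libraries. A log2 fold change is on that scale. Tests are two-sided. Groups were called apart where their values did not overlap. edgeR 4.0.16 and DESeq2 1.42.0 on recovered reads, other pseudocounts (0.5 and 5), testing without a filter or with a minimum mean of 50, upper-quartile and quantile rescaling, the replicate block, the compared groups alone and each library left out were the alternatives; the 7-gene reference was added after the data were examined. 1 gene of the marker lists is not reported here. Scripts were tested on simulated data. Replicates correlated at 0.953 or more and 0 pairs were identical. Members, lists and tests were chosen with earlier results of these data known. Named genes are the members, 3 ligands, up to 4 called members per list with the largest change in a comparison, and the 5 most similar genes. Ddx3y, Spp1, Gm33858, Hmgxb3 and Gpnmb were named after results of these data were seen. Positions are GENCODE M21. Tables and plots used pandas 2.3.3 and matplotlib 3.10.9 under Python 3.11.15.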

Additional observations from a re-analysis of the deposited data

Results flagged for a closer look

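A library stood apart from the other 3 of its group in 15 of 85 sets of 4 values. The gap had to exceed the 95% limit of Dixon's test, which chance passes in about 1 in 20 sets. The sets come from the same libraries and the ratios share Csf1r, so the sets are not independent. Whether 15 exceeds chance was not tested. KO naive replicate 3 accounts for 7 of the 15. Its normalized count was high for P2ry12 (61441), Tmem119 (76529), Csf1r (327832), Siglech (21490), Gpr34 (41936) and Olfml3 (49561), and its Fcrls was low as a percentage of Csf1r (4.31%). Olfml3 in KO IOP replicate 3 was high at 59685, and Siglech in WT naive replicate 2 low at 15571.

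On the percentage of Csf1r, WT naive replicate 2 was high for Fcrls (9.91%) and Olfml3 (11.2%), WT naive replicate 4 high for Tmem119 (21.2%), WT naive replicate 1 low for Sparc (24.3%), WT IOP replicate 2 low for Tmem119 (17.9%) and KO naive replicate 2 high for Siglech (7.85%).

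The change in level after IOP elevation differed between genotypes, by the interaction term in limma, for Cx3cr1 (-3.71), P2ry12 (1.59), Csf1r (1.56), Siglech (1.41), Fcrls (2.15) and Sparc (1.88). Of the 7 genes shared by microglia and macrophages, 4 were also called above 0 (median 1.61). Interactions were not fitted on the ratio to Csf1r.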

How the results depend on the processing

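The fall of Cx3cr1 in KO IOP passed in every alternative run, on the level and on the ratio, against WT IOP (-5.37 to -5.03 and -5.89 to -5.69 in fits without 1 library) and against KO naive (-4.51 to -4.02 and -5.52 to -5.03). Counts of members on the level depended on single libraries: without 1 library, KO against WT in naive retinas gave 0 to 9, WT ONC against naive 0 to 1, KO IOP against naive 2 to 9, the interaction with IOP 3 to 9 and that with ONC 0 to 5. For KO against WT in naive retinas (2), the count was 4 with a mean of at least 50, 5 with quantile normalization, 0 with the compared groups alone, 0 with edgeR and 4 with DESeq2. For WT IOP against naive (0) it was 1 with quantile normalization, with the compared groups alone and with DESeq2. For WT ONC against naive (1) it was 2 with quantile normalization and 0 with the compared groups alone. For KO IOP against naive (6) it was 1 with the compared groups alone, 1 with edgeR and 3 with DESeq2, and the interaction with IOP gave 3 with edgeR. The edgeR and DESeq2 fits lacked KO IOP replicates 2 and 4, so they differ from the main fit in libraries as well as in method. The interaction with ONC gave 2 with quantile normalization and 2 with DESeq2. On the ratio, KO IOP against WT IOP gave 2 with quantile normalization and 2 with the 7-gene reference, and WT IOP against naive 1 with quantile normalization. The cause was not tested.

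Small differences turned sign. Between KO IOP and WT IOP, Gpr34 on the level was -0.002 with upper-quartile rescaling, -0.086 with quantile normalization and -0.008 to 0.180 in fits without 1 library, lowest without WT IOP replicate 1. On the ratio, fits without 1 library gave -0.106 to 0.002 for Tmem119, -0.123 to 0.014 for Siglech and -0.016 to 0.124 for Sparc. Fcrls was -0.09 with quantile normalization and -0.021 with the 7-gene reference, and Sparc -0.069 and -0.052. Sparc in WT ONC against naive was -0.17 with quantile normalization and -0.340 with the 7-gene reference, which gave -0.018 for Olfml3 in KO ONC against naive.

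Same-numbered libraries did not deviate together (correlations of deviations from -0.253 to 0.153), and the main fits did not pair them. These correlations cannot show whether such libraries shared a cohort or a batch. With the replicate number as a block, 1 member passed in WT IOP against naive (0 without the block) and 8 in KO IOP against naive, and other counts of members stayed within 1.5 times.

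The lowest level of a member in any library, 952.2 normalized counts of Cx3cr1, lies above the 2.41 to 4.03 that 3 reads are worth.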
